A study of Mus musculus with 6 samples.

Results

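The gene family described here is the set of enzymes and redox proteins that handle peroxides, superoxide and reactive electrophiles: glutathione transferases, glutathione peroxidases, peroxiredoxins, superoxide dismutases, catalase, thioredoxins with their reductases, thioredoxin domain proteins, and the enzymes that make and recycle glutathione. Members were taken by gene symbol alone, and 59 of the 38715 genes in the table belonged to the set. The measurements were RNA-seq of whole mouse testis in 6 libraries, 3 titled Middle and 3 titled Control. The design text names a MES-exposed group and a control group, and the Middle libraries are taken here to be the exposed ones, since no other title remains. The series title places the exposure in early life and concerns testosterone production. No source used here gives the strain, age or dose, or spells out MES. Nothing in the labels ties each library to an animal of its own, and p-values therefore describe the spread between libraries, which may be technical.

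Glutathione is a small thiol peptide that transferases join to electrophiles and that peroxidases use to reduce peroxides to water or alcohols. Peroxiredoxins do the same work with electrons from thioredoxin, and thioredoxin is kept reduced by thioredoxin reductases at the cost of NADPH. In the testis several of these genes have forms made mainly in developing sperm, where some of the proteins end up as parts of the sperm tail or of the mitochondrial capsule.

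Promoters of 6 members are shown as the sequence context of genes described below, and no member passed the test. Txndc2, Txndc8, Gstt4 and Gpx6 had the lowest Middle over Control values of all tested members, Txn1 lies near Txndc8 and had the opposite direction, and Gclm makes glutathione and is a textbook target of the stress factor NRF2. Each sequence runs from 250 bases before to 50 bases after a transcription start in RefSeq, build GRCm38.p6, and is printed in the direction of the gene. Capitals mark TGACATCA or its reverse complement in Txndc2 and Txndc8, TATAAA in Txn1, and TGACNNNGC in reverse complement in Gclm. No capitals appear in Gstt4 and Gpx6.
Txndc2, chr17:65642155-65642454, minus strand: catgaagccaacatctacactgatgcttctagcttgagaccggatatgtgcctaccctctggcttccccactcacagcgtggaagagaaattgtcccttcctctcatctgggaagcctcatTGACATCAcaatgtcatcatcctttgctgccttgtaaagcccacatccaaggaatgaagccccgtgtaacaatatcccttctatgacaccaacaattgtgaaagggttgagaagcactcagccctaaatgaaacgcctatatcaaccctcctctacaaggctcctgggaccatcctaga
Txndc8, chr4:58009077-58009376, minus strand: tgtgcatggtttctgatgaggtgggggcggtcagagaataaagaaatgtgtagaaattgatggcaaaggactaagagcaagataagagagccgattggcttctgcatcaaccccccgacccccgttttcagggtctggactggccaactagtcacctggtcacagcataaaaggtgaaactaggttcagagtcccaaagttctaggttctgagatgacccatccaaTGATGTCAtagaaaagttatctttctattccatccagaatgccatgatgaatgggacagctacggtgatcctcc
Gstt4, chr10:75822494-75822793, minus strand: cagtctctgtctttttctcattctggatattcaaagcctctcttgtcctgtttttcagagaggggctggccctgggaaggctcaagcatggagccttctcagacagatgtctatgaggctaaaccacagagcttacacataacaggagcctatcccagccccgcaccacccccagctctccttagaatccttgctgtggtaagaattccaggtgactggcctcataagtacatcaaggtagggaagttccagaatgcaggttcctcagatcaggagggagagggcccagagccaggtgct
Gpx6, chr13:21311953-21312252, plus strand: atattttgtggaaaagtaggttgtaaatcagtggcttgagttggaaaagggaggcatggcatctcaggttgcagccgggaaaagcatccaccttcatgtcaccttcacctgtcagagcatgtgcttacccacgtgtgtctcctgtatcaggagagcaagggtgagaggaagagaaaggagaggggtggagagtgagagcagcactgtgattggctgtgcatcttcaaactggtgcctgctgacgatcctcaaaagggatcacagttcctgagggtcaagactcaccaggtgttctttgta
Txn1, chr4:57956362-57956661, minus strand: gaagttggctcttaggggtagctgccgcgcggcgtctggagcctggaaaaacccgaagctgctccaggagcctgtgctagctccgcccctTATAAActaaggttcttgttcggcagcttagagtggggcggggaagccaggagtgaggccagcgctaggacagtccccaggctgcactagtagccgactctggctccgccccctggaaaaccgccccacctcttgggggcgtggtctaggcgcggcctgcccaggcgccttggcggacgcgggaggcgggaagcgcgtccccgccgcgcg
Gclm, chr3:122245307-122245606, plus strand: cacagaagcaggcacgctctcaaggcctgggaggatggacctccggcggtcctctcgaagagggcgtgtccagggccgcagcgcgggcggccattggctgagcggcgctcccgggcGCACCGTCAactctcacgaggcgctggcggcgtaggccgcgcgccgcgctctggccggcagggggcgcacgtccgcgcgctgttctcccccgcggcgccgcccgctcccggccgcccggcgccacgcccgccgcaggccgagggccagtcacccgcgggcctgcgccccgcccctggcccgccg

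The promoter table held 52 of the 59 members with 70 starts. Both strands were searched for 4 motifs, and no match in the sequences above shares letters with another. The motifs and the promoters shown were chosen with the values known. TGACNNNGC, the core that NRF2 binds, was found in 10 of the 70 member promoters (14.3%) against 12.4% of all 32851 promoters of this length. TATAAA was found in 9 of them (12.9%) against 13.6%, and TGACGTCA, the full cAMP response element, in 0 against 1.79%. TGACATCA, a variant of that element, was found in 3 (4.29%) against 3.62%, namely in Txndc2, Txndc8 and Txnrd1. It began 129 bases before the start in Txndc2 and 24 bases before it in Txndc8. Of the 2 starts listed for Txndc2 the one with the match is shown. These matches are descriptions of the letters in a window, not of binding.

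Levels are given as RPKM, which are reads scaled to gene length and library size, as deposited by the authors, so genes can be compared per length. Reads over all genes numbered 46649138 to 56435498 in Middle and 38820385 to 58389391 in Control, and 1 read of a gene of 1 kb was worth 0.0171 to 0.0258 RPKM. The members differed widely in level: 7 averaged at least 100 RPKM over the 6 libraries, 14 lay from 10 to 100, 29 from 1 to 10, and 9 below 1 RPKM. The 8 members with the highest levels made up 86.5% to 89.5% of the summed level of all members in a library, and Gstm5 alone 38.6% to 44.2%. In order of mean level these 8 were Gstm5, Gpx4, Txndc2, Txnrd3, Gstm1, Gstt4, Gstm2 and Gsto2. Gpx4 and Txndc2 overlapped in level across libraries, as did Txndc2 and Txnrd3, Gstm1 and Gstt4, and Gstt4 and Gstm2. Txnrd3 and Gstm1 overlapped across libraries by a small margin, through Middle replicate 1 of Gstm1, but Txnrd3 was the higher of the pair within every library. The other overlapping neighbours in the order are not set apart by their spread.

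**Figure D1:**
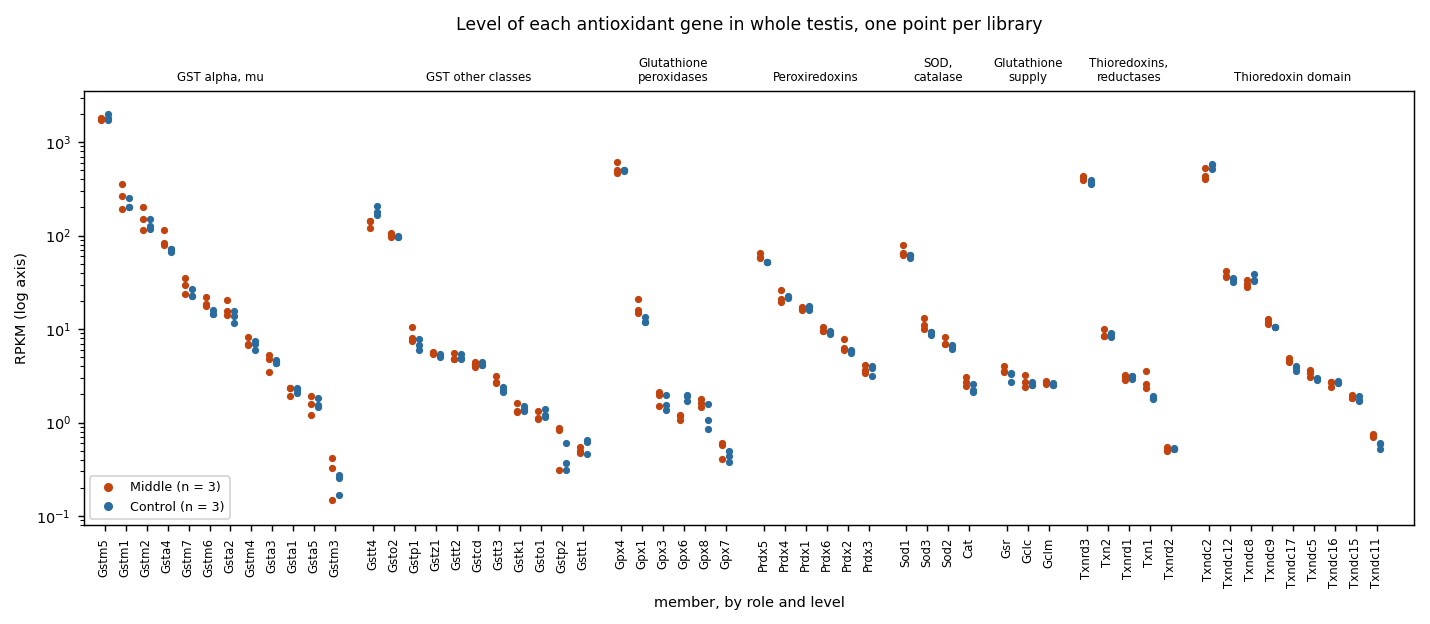
RPKM (log axis) of the 56 members that averaged at least 0.1 RPKM, grouped by role and ordered by level, with 1 point per library for Middle (left of each pair) and Control (right). Gstm5, Gpx4, Txndc2 and Txnrd3 stand highest in their role groups. Gpx2, Gpx5 and Gstp3 are left out.

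Middle replicate 1 stood apart from the other libraries. It lay at the far end of the first principal component, which held 50.1% of the variance over tested genes, and the rank correlation of its deviations with transcript GC content was 0.446, against -0.0706 and 0.0282 in the other Middle libraries and -0.294 to -0.216 in Control libraries. It was the highest of the 6 libraries for 34 of the 50 tested members (68%), against 32.6% of all 15040 genes tested. Where a printed log2 fold change or list median moved by over 1.5 times without it, that value is given too. Across the 49 tested members with a GC value the rank correlation of GC content with the log2 fold change was 0.287, and across 14003 genes it was 0.345, as a description over genes of the same 6 libraries. The groups did not overlap in their GC correlation, so GC content and group cannot be told apart.

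Of the 59 members, 50 were tested, those whose mean in Middle or in Control came to 1 RPKM or more. None of the 50 passed at an adjusted p under 0.05 (limma-trend on log2(RPKM + 1), Benjamini-Hochberg over all 15040 genes), where 0.0532% of all genes passed, 0.00665% with Middle higher and 0.0465% with Middle lower. The smallest adjusted p of a member was 0.177 (limma). An unadjusted p under 0.05 was reached by 13 members (26%), 10 higher and 3 lower in Middle, where 20.7% of all genes reached it, 11.7% with Middle higher and 9.02% with Middle lower. With limma-voom on the recovered reads 0 of 56 members passed as well, and 15 (26.8%) reached an unadjusted p under 0.05, against 17.1% of all genes in that fit. The 13 became 7 (14%) without Control replicate 1, when 9.6% of all genes reached that level. The groups did not overlap for 17 members (34%), 15 with Middle higher and 2 with Middle lower, where 29.3% of all genes did not overlap, 17.9% with Middle higher and 11.4% with Middle lower. With both directions counted together, these shares lie near those of all genes. By direction, 20% of members reached an unadjusted p under 0.05 with Middle higher and 6% with Middle lower, and 30% and 4% did not overlap.

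The direction of the members leaned to higher values in Middle. The log2 fold change was above 0 for 37 of the 50 (74%) and for 55.9% of all genes, and its median was 0.10 for the members and 0.03 for all genes. Without Middle replicate 1 the members had 34 above 0 (68%, against 57.6% of all genes) and a median of 0.06, and the median of all genes was 0.03. With upper-quartile scaling, which moved the median of all genes to 0.01, 32 members (64%) lay above 0, against 51.5% of all genes. Their median was 0.08. The tested members ranged from -0.43 for Gstt4 to 0.41 for Gpx1 on this scale. The spread between libraries was wider in Middle, with a median coefficient of variation of 10.3% over tested members, than in Control, with 5.67%, and it was wider in Middle for 36 of the 50.

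**Figure D2:**
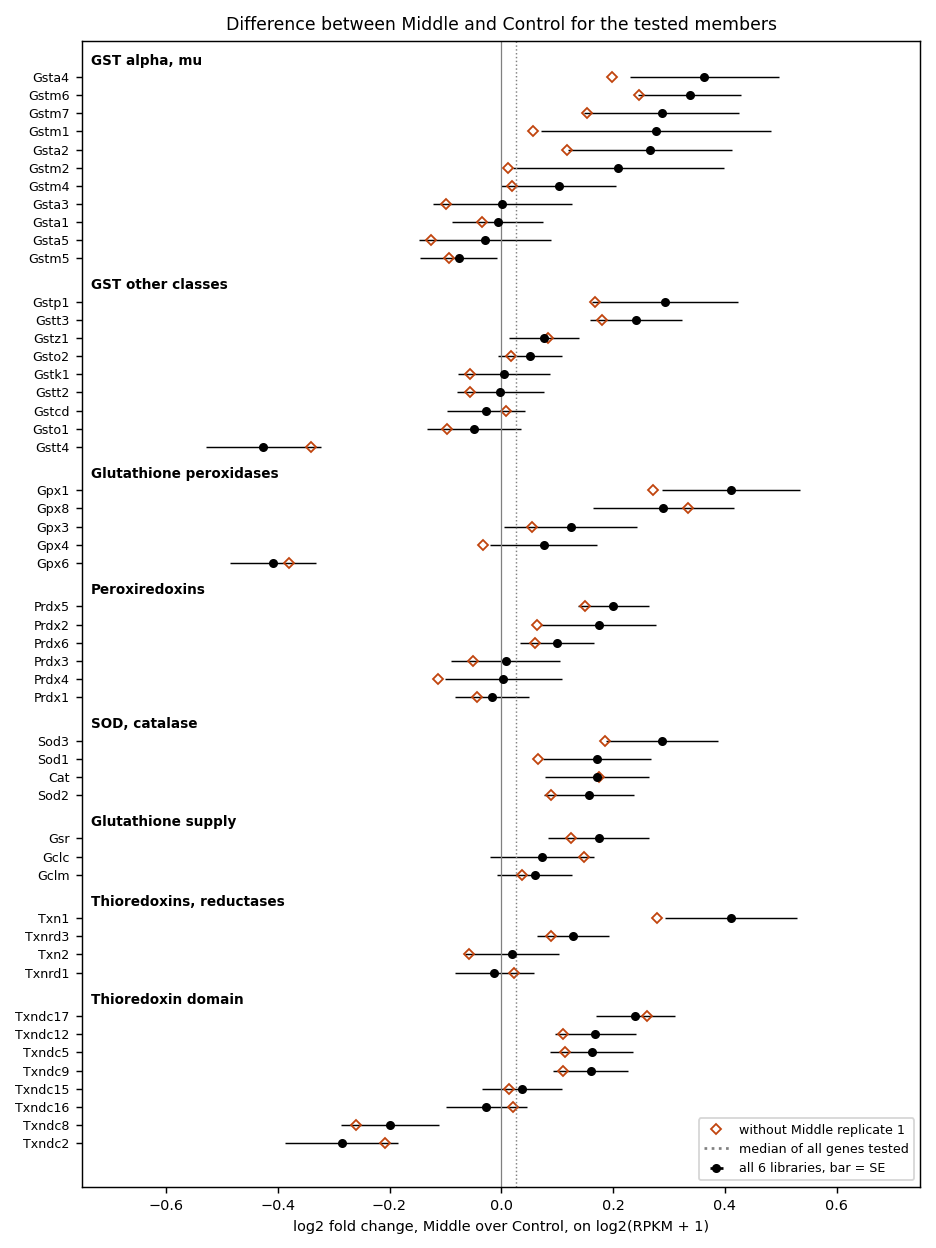
Log2 fold change of Middle over Control on the log2(RPKM + 1) scale for the 50 tested members by role (filled points, bars are SE), and the same without Middle replicate 1 (open diamonds). Most points lie right of 0, the diamond lies closer to 0 than the point for 32 members, and Gstt4, Gpx6, Txndc2 and Txndc8 lie farthest to the left. The dotted line is the median of all genes tested.

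The alpha and mu classes of glutathione transferases, the main cytosolic conjugating enzymes, held 12 members, and 8 of the 11 tested lay above 0 (median 0.21, and 0.02 without Middle replicate 1). Gstm5 (GRCm39 chromosome 3, 107803137 to 107806002), a mu enzyme found in the fibrous sheath of the sperm tail, was at 1801, 1724 and 1755 RPKM in Middle libraries, against 2024, 1745 and 1808 RPKM in Control libraries. The groups overlapped, and Control replicate 1 was the highest. The log2 fold change was -0.08 (SE 0.07, adjusted p = 0.528, limma). An antisense gene, 4933431E20Rik, shares 13.9% of its exon bases, and counting appears not to use strand, so part of its reads may belong to that gene.

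Gsta4, an alpha enzyme that conjugates the lipid peroxidation product hydroxynonenal, was at 114, 78.6 and 82.8 RPKM in Middle, against 66.5, 71.5 and 72.6 RPKM in Control. Each Middle library lay above each Control library, and Middle replicate 1 was far above the other 2. Its log2 fold change was 0.36 (SE 0.13, adjusted p = 0.201, limma) and 0.20 without that library. Gstm6 was at 22.0, 17.5 and 18.7 RPKM in Middle, against 14.6, 14.6 and 16.0 RPKM in Control, again with no overlap, and its log2 fold change was 0.34 (SE 0.09, adjusted p = 0.178, limma). Gstm1 and Gstm2 are mu enzymes at high level and are given here for their spread, after their values were seen. Gstm1 was at 359, 264 and 194 RPKM in Middle, against 204, 201 and 253 RPKM in Control. Gstm2 had the same order of libraries, with 200.4, 152 and 115 RPKM in Middle, against 127, 118 and 151 RPKM in Control. Middle held both the highest and the lowest library for each of them, and their log2 fold changes of 0.28 and 0.21 became 0.06 and 0.01 without Middle replicate 1.

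The other members of these classes were Gstm7, Gstm4, Gsta1, Gsta2, Gsta3 and Gsta5 among those tested and Gstm3 below the limit for testing. Gsta2 averaged 16.8 ± 3.38 RPKM in Middle and 13.8 ± 1.92 in Control (SD, n = 3 each), while its near copy Gsta1 averaged 2.19 ± 0.231 and 2.204 ± 0.127 RPKM. Their transcripts match at 97.2% over 870 bases, and no source used here tells how reads that fit both were counted, so the split between them is uncertain. In all, 12 members had a copy elsewhere at 95% identity or more over at least 200 bases, and 12 shared exon bases with another gene. Gstm3 averaged 0.298 RPKM in Middle and 0.234 RPKM in Control.

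Among the theta, omega, pi, zeta and kappa classes and Gstcd, a protein with a transferase domain, 5 of 9 tested members lay above 0 and the median was 0.00 (0.01 without Middle replicate 1). Gstt4 (GRCm39 chromosome 10, 75650777 to 75658377), a theta enzyme, was at 120.3, 145 and 143 RPKM in Middle libraries, against 206, 165 and 178 RPKM in Control libraries. Every Middle library lay below every Control library, with Middle replicate 1 lowest and Control replicate 1 highest. The ratio of means was 0.743 and the log2 fold change -0.43 (SE 0.10), which did not pass (adjusted p = 0.178, limma). Without Middle replicate 1 it was -0.34.

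Gstt3, a theta enzyme of the same cluster whose end lies 33528 bases from Gstt4, went the other way. It was at 3.18, 2.66 and 2.70 RPKM in Middle, against 2.24, 2.41 and 2.11 RPKM in Control, also with no overlap (0.24 on the log2 scale with an SE of 0.08, adjusted p = 0.190 by limma). Gstt1 lies between them. The ratio of Gstt4 to Gstt3 within a library was 37.9, 54.4 and 52.8 in Middle, against 91.8, 68.6 and 84.5 in Control. The pair was chosen after its values were seen, and since each gene alone separated the groups the ratio had to as well, so it is given with no test. Exon bases shared with Gm20441 make up 13.6% of Gstt3. Gstt2, also of the cluster, averaged 5.02 ± 0.402 RPKM in Middle and 5.03 ± 0.299 in Control, and Gstt1, which was not tested, averaged 0.509 ± 0.0391 and 0.583 ± 0.103 RPKM (SD, n = 3 each).

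Gsto2, an omega enzyme that recycles vitamin C, averaged 101 ± 4.55 RPKM in Middle and 97.2 ± 1.32 in Control (SD, n = 3 each). Gstp1, the pi enzyme, averaged 8.68 ± 1.53 RPKM in Middle and 6.87 ± 0.954 in Control (SD, n = 3 each), and the libraries overlapped. Gstz1, an isomerase of tyrosine breakdown, averaged 5.55 ± 0.105 and 5.21 ± 0.161 RPKM in Middle and Control with no overlap, a log2 fold change of 0.08. Gstk1, Gsto1 and Gstcd had log2 fold changes of -0.05 to 0.00, and of -0.10 to 0.01 without Middle replicate 1.

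Of the 8 glutathione peroxidases 5 were tested, and 4 of them lay above 0. Gpx4 (GRCm39 chromosome 10, 79883000 to 79892273), which reduces peroxides of membrane lipids and forms part of the mitochondrial capsule of sperm, was at 614, 471 and 508 RPKM in Middle, against 499, 493 and 509 RPKM in Control. Middle held both the highest and the lowest library. The log2 fold change was 0.08 (SE 0.10, adjusted p = 0.652, limma), and -0.03 both without Middle replicate 1 and with the trend on GC content removed. A processed copy, Gpx4-ps2, matches its transcript at 99.7% over 733 bases and held 3.29% as many reads.

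Gpx1, the peroxidase of cytosol and mitochondria, was at 20.8, 15.9 and 14.7 RPKM in Middle, against 12, 13.5 and 12.01 RPKM in Control. No libraries overlapped, and the log2 fold change of 0.41 (SE 0.12, adjusted p = 0.178, limma) was 0.27 without Middle replicate 1. The antisense gene Gm57050 covers 84% of its exon bases and held nearly the same reads in each library, 1407, 1058 and 1188 beside 1420, 1066 and 1198 for Gpx1 in Middle. The reads of these genes cannot be told apart.

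Gpx6 (GRCm39 chromosome 13, 21496295 to 21503794), a peroxidase known from the olfactory epithelium, had the smallest p of all members. It was at 1.07, 1.18 and 1.22 RPKM in Middle, against 1.97, 1.69 and 1.92 RPKM in Control, values that rest on 69, 75 and 94 reads and on 144, 135 and 102 reads. The 3 Middle libraries lay close together below the Control libraries, with a ratio of means of 0.620. Its log2 fold change was -0.41 (SE 0.08, adjusted p = 0.177, limma) and -0.38 without Middle replicate 1. On the scale of limma-voom, which adds no RPKM unit, it was -0.70 (adjusted p = 0.105, limma-voom).

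Gpx8, a peroxidase of the endoplasmic reticulum, averaged 1.63 ± 0.165 RPKM in Middle and 1.17 ± 0.367 in Control, and the secreted Gpx3 averaged 1.87 ± 0.323 and 1.63 ± 0.315 RPKM (SD, n = 3 each). Both overlapped between the groups. Gpx7 averaged 0.528 RPKM in Middle and 0.436 RPKM in Control and was not tested. Gpx5, the peroxidase of the epididymis, had 4 reads in Middle replicate 3, 2 in Control replicate 1 and 0 in the other libraries, where a count of 0 allows up to 0.0614 to 0.0923 RPKM (3 fragments, or 6 reads). Gpx2 of the gut had 1 read in all. Of 13 epididymal markers in the table, Crisp1 was at 0.0184 RPKM in Middle and 0.0121 RPKM in Control. Crisp1 does not stand for that list, of which 4 genes reached the level for testing. The 13 markers together summed to 284 to 347 RPKM in Middle libraries and 325 to 350 RPKM in Control libraries.

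Peroxiredoxins, abundant thiol peroxidases, were all tested, and 5 of 6 lay above 0 with a median of 0.05 (0.01 without Middle replicate 1). Prdx5, of mitochondria and peroxisomes, had the highest level, at 65.0, 57.7 and 59.1 RPKM in Middle, against 52.5, 52.5 and 52.6 RPKM in Control. The Control libraries agreed within 1 RPKM and all Middle libraries lay above them. The log2 fold change was 0.20 (SE 0.06, adjusted p = 0.180, limma), and 0.11 with the GC trend removed. Trmt112, on the other strand, shares 19.1% of the exon bases of Prdx5. Prdx4, the form of the endoplasmic reticulum whose loss in mice leads to small testes, was at 26.2, 19.4 and 21.3 RPKM in Middle, against 22.6, 21.6 and 21.9 RPKM in Control. Middle replicates 1 and 2 lay above and below all Control libraries, and the log2 fold change was 0.00 (SE 0.10) and -0.11 without Middle replicate 1. Prdx6, which also acts on phospholipids, averaged 9.88 ± 0.525 RPKM in Middle and 9.15 ± 0.281 in Control (SD, n = 3 each) with no overlap, and Prdx1, Prdx2 and Prdx3 overlapped, with log2 fold changes of -0.02, 0.17 and 0.01, which were -0.04, 0.06 and -0.05 without Middle replicate 1.

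The superoxide dismutases and catalase lay above 0 together, with log2 fold changes of 0.16 to 0.29. They were 0.06 for Sod1, 0.09 for Sod2, 0.19 for Sod3 and 0.18 for Cat without Middle replicate 1. Of the 4 genes 1, Sod3, reached an unadjusted p under 0.05, which 20.7% of all genes did, 11.7% with Middle higher. Sod1, the cytosolic form that turns superoxide into peroxide, was at 79.3, 61.8 and 65.0 RPKM in Middle, against 62.3, 57.6 and 61.9 RPKM in Control, and the groups overlapped. Sod3, the secreted form, was at 13.2, 11.01 and 9.93 RPKM in Middle, against 8.61, 9.22 and 9.40 RPKM in Control. All Middle values exceeded the Control values, and the log2 fold change was 0.29 (SE 0.10, adjusted p = 0.192, limma). Sod2, of mitochondria, averaged 7.37 ± 0.697 RPKM in Middle and 6.49 ± 0.322 in Control (SD, n = 3 each), with no overlap. Cat, the peroxisomal enzyme that breaks down hydrogen peroxide, was at 2.70, 3.06 and 2.44 RPKM in Middle, against 2.13, 2.21 and 2.61 RPKM in Control (0.17 on the log2 scale with an SE of 0.09, adjusted p = 0.317 by limma), and Control replicate 3 reached into the Middle range.

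The 3 enzymes of glutathione supply stood between 2 and 4 RPKM. Gclc, the catalytic subunit of the first step of glutathione synthesis, was at 2.40, 2.73 and 3.23 RPKM in Middle, against 2.53, 2.70 and 2.52 RPKM in Control. Gclm, its modifier subunit, was at 2.82, 2.58 and 2.70 RPKM in Middle, against 2.498, 2.64 and 2.51 RPKM in Control. Both overlapped between the groups, with log2 fold changes of 0.07 (SE 0.09) and 0.06 (SE 0.07). Without Middle replicate 1 these were 0.15 for Gclc and 0.04 for Gclm, and with the GC trend removed Gclm was at 0.12. Gsr, which returns oxidized glutathione to its reduced form, was at 3.995, 3.48 and 3.54 RPKM in Middle, against 2.73, 3.41 and 3.29 RPKM in Control. The groups of Gsr did not overlap, and it differed by 0.17 on the log2 scale (SE 0.09, adjusted p = 0.293 by limma).

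Thioredoxins and their reductases differed widely in level. Txnrd3 (GRCm39 chromosome 6, 89620970 to 89652511), a reductase of spermatids that acts on both thioredoxin and glutathione, was at 429.7, 393 and 400.2 RPKM in Middle, against 357, 394 and 367 RPKM in Control. Control replicate 2 reached into the Middle range, and the log2 fold change was 0.13 (SE 0.06, adjusted p = 0.286, limma), and 0.07 with the GC trend removed. The cytosolic Txnrd1 and the mitochondrial Txnrd2 stood far below it, Txnrd1 at 3.05 ± 0.200 RPKM in Middle and 3.09 ± 0.107 in Control, and Txnrd2, not tested, at 0.518 ± 0.0331 and 0.526 ± 0.0108 RPKM (SD, n = 3 each). Txn1, the cytosolic thioredoxin, was at 3.54, 2.33 and 2.56 RPKM in Middle, against 1.78, 1.83 and 1.91 RPKM in Control, on 176, 114 and 152 reads and 100, 112 and 78 reads. Middle lay above Control in every library, and the ratio of means, 1.53, was the highest among the members with an unadjusted p under 0.05. The log2 fold change was 0.41 (SE 0.12, adjusted p = 0.178, limma), and 0.28 without Middle replicate 1. Txn2, of mitochondria, averaged 8.95 ± 0.939 RPKM in Middle and 8.79 ± 0.463 in Control (SD, n = 3 each).

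Of 8 tested thioredoxin domain genes 5 lay above 0, with a median of 0.10 (0.07 without Middle replicate 1 and 0.05 with the GC trend removed), and 3 below. Txndc2 (GRCm39 chromosome 17, 65944502 to 65949163), a thioredoxin of spermatids and the sperm tail, was at 408, 524 and 439 RPKM in Middle libraries, against 588, 513 and 564 RPKM in Control libraries. Middle replicate 2 reached into the Control range and the other 2 Middle libraries lay below it. The log2 fold change was -0.29 (SE 0.10, adjusted p = 0.196, limma), and -0.21 without Middle replicate 1. Txndc8, another thioredoxin of spermatids, was at 33.2, 30.2 and 28.2 RPKM in Middle, against 38.8, 33.0 and 33.8 RPKM in Control. Middle replicate 1 and Control replicate 2 crossed by a small margin, and the log2 fold change was -0.20 (SE 0.09, adjusted p = 0.246, limma).

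Txndc8 lies 27615 bases from Txn1 on chromosome 4. The ratio of Txndc8 to Txn1 within a library was 9.39, 13.0 and 10.99 in Middle, against 21.8, 18.1 and 17.7 in Control. This pair too was chosen after its values were seen, and its ratio is given with no test.

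Txndc12, of the endoplasmic reticulum, was at 41.6, 37.1 and 36.5 RPKM in Middle, against 34.6, 35.2 and 32.3 RPKM in Control. Txndc9, a partner of the cytosolic chaperonin, was at 12.9, 11.3 and 11.8 RPKM in Middle, against 10.6 RPKM in each of the 3 Control libraries. Txndc17, a cytosolic disulfide reductase, was at 4.50, 4.89 and 4.58 RPKM in Middle, against 3.999, 3.83 and 3.54 RPKM in Control. None of these 3 overlapped between groups, their log2 fold changes were 0.17, 0.16 and 0.24, and their adjusted p-values were 0.241, 0.237 and 0.178 (limma). Without Middle replicate 1 they were 0.11, 0.11 and 0.26, and with the GC trend removed Txndc9 was at 0.25. Txndc5, a disulfide isomerase of the endoplasmic reticulum, averaged 3.40 ± 0.294 RPKM in Middle and 2.93 ± 0.0517 in Control with no overlap, and Txndc15 and Txndc16 overlapped. Txndc11, below the limit for testing, averaged 0.731 ± 0.0292 RPKM in Middle and 0.569 ± 0.0407 in Control (SD, n = 3 each), without overlap.

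**Figure D3:**
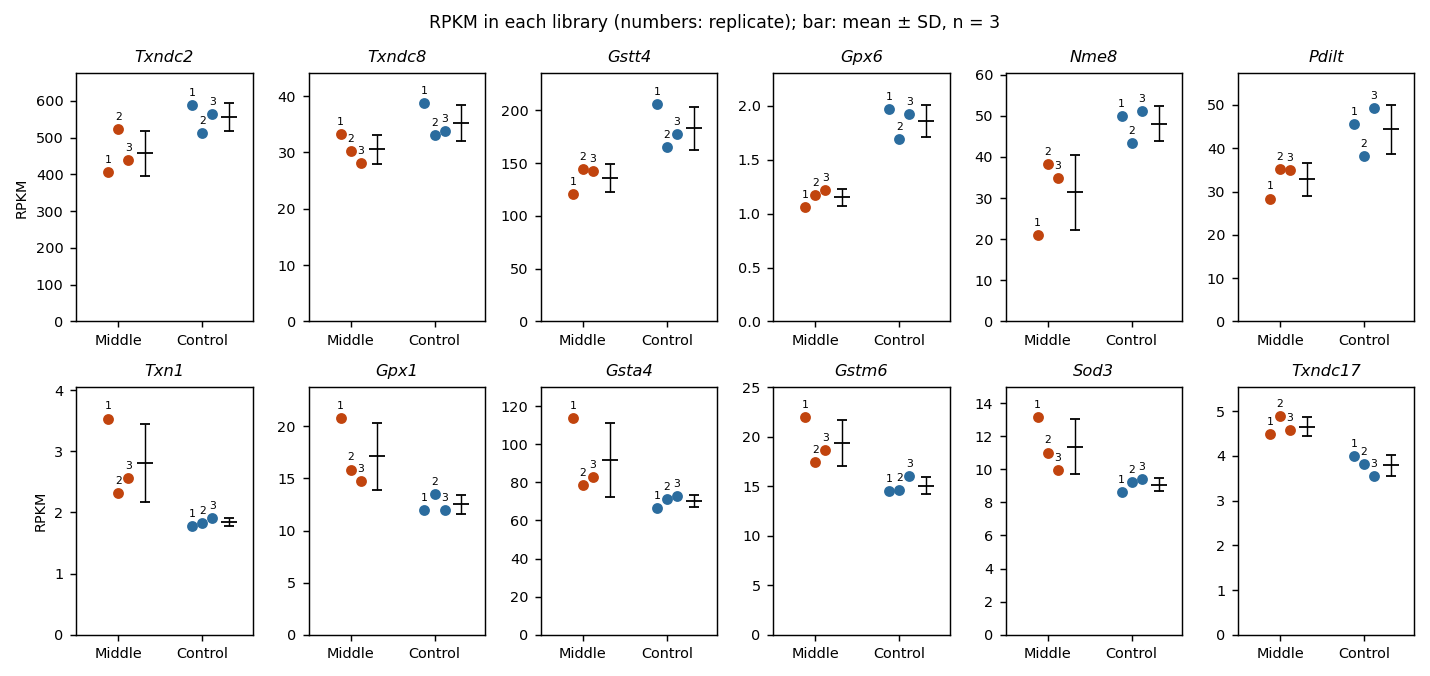
RPKM of each library for 12 genes, Middle left and Control right, with the replicate number at each point and the mean ± SD (n = 3) beside it. The upper row holds sperm thioredoxins, Gstt4, Gpx6 and the related genes Nme8 and Pdilt, with lower Middle means, and the lower row holds genes with higher Middle means, where Middle replicate 1 is the highest library for 5 of the 6.

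The 2 remaining members, Gstp2 and Gstp3, were not tested. Gstp2 averaged 0.670 ± 0.314 RPKM in Middle and 0.426 ± 0.155 in Control (SD, n = 3 each) and matches the pseudogene Gstp-ps at 99.2% over 631 bases. Gstp3 had 2 reads in Middle replicate 2, 8 in Control replicate 2 and 0 in the other libraries.

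The rest of the system was described by lists of other genes. Their counts stand beside 55.9% of all genes tested with a log2 fold change above 0. Among all genes, 11.7% with Middle higher and 9.02% with Middle lower reached an unadjusted p under 0.05 (limma). Among 28 further thioredoxin partners and disulfide isomerases 22 were tested, 0 passed, 5 with Middle higher and 2 with Middle lower reached an unadjusted p under 0.05, and the median log2 fold change was 0.03 (0.02 without Middle replicate 1). The 2 lower genes are known from testis or sperm. Nme8, a thioredoxin with kinase domains in the sperm tail, was at 20.99, 38.3 and 35.0 RPKM in Middle, against 49.9, 43.3 and 51.1 RPKM in Control. Pdilt, a disulfide isomerase-like protein of the testis, was at 28.4, 35.1 and 34.9 RPKM in Middle, against 45.7, 38.2 and 49.3 RPKM in Control. Neither overlapped between groups, with log2 fold changes of -0.64 (SE 0.20) and -0.42 (SE 0.12) and adjusted p-values of 0.180 and 0.178 (limma). Nme8 was at -0.38 and Pdilt at -0.32 without Middle replicate 1. P4hb, the main protein disulfide isomerase, averaged 27.8 ± 1.29 RPKM in Middle and 24.01 ± 0.609 in Control, and Rrm1, a ribonucleotide reductase subunit that thioredoxin serves, 17.6 ± 0.923 and 14.8 ± 0.668 RPKM (SD, n = 3 each).

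Of 31 other genes of glutathione metabolism and transport 22 were tested, 0 passed, 4 reached an unadjusted p under 0.05 with Middle higher and 0 with Middle lower, and the median was 0.03 (0.01 with the GC trend removed). Hagh, the second enzyme of the glyoxalase pathway, averaged 114 ± 10.7 RPKM in Middle and 96.7 ± 6.46 in Control. Slc3a2, the heavy chain of the cystine exchanger, averaged 27.2 ± 3.36 and 22.5 ± 0.808 RPKM, the peptidase gene Lap3 8.10 ± 0.354 and 6.82 ± 0.484 RPKM, and the exporter gene Abcc1 1.59 ± 0.0517 and 1.31 ± 0.0733 RPKM (SD, n = 3 each). Slc7a11, the light chain of that exchanger, was far below the level for testing. It averaged 0.0573 RPKM in Middle and 0.0862 RPKM in Control, lower in Middle without overlap. Of 27 regulators and targets of NRF2, of which Abcc1, G6pdx, Pgd and Slc7a11 are also among these glutathione genes, 22 were tested. Of the 22, 17 lay above 0 (median 0.11, 0.07 without Middle replicate 1 and 0.06 with the GC trend removed), where 55.9% of all genes did. An unadjusted p under 0.05 was reached by 5 with Middle higher and 0 with Middle lower, against 11.7% and 9.02% of all genes, and 0 passed the adjusted threshold. The ferritin gene Fth1 averaged 53.04 ± 7.15 RPKM in Middle and 41.4 ± 3.16 in Control, and the adaptor gene Sqstm1 33.5 ± 3.24 and 27.0 ± 1.32 RPKM (SD, n = 3 each). Taldo1, of the pentose phosphate pathway, averaged 8.27 ± 1.08 and 6.46 ± 0.343 RPKM, and Rbx1, of the ubiquitin ligase that acts on NRF2, 5.67 ± 0.658 and 4.43 ± 0.363 RPKM. Cul3, of the same ligase, went the other way, at 113 ± 13.7 RPKM in Middle and 128 ± 2.22 in Control (SD, n = 3 each), with overlap. It was among the 5 tested genes of this list that lay below 0. Nfe2l2, which encodes NRF2 itself, averaged 2.39 ± 0.349 and 2.34 ± 0.0371 RPKM, and its inhibitor Keap1 14.4 ± 1.401 and 14.3 ± 0.436 RPKM. Of 23 genes for selenoproteins and their synthesis 18 were tested, and 12 lay above 0 (median 0.08, and 0.01 with the GC trend removed). An unadjusted p under 0.05 was reached by 1, the methionine sulfoxide reductase gene Msrb1. Msrb1 was already counted among the thioredoxin partners above, and Srxn1 is both in that list and in the NRF2 list.

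**Figure D4:**
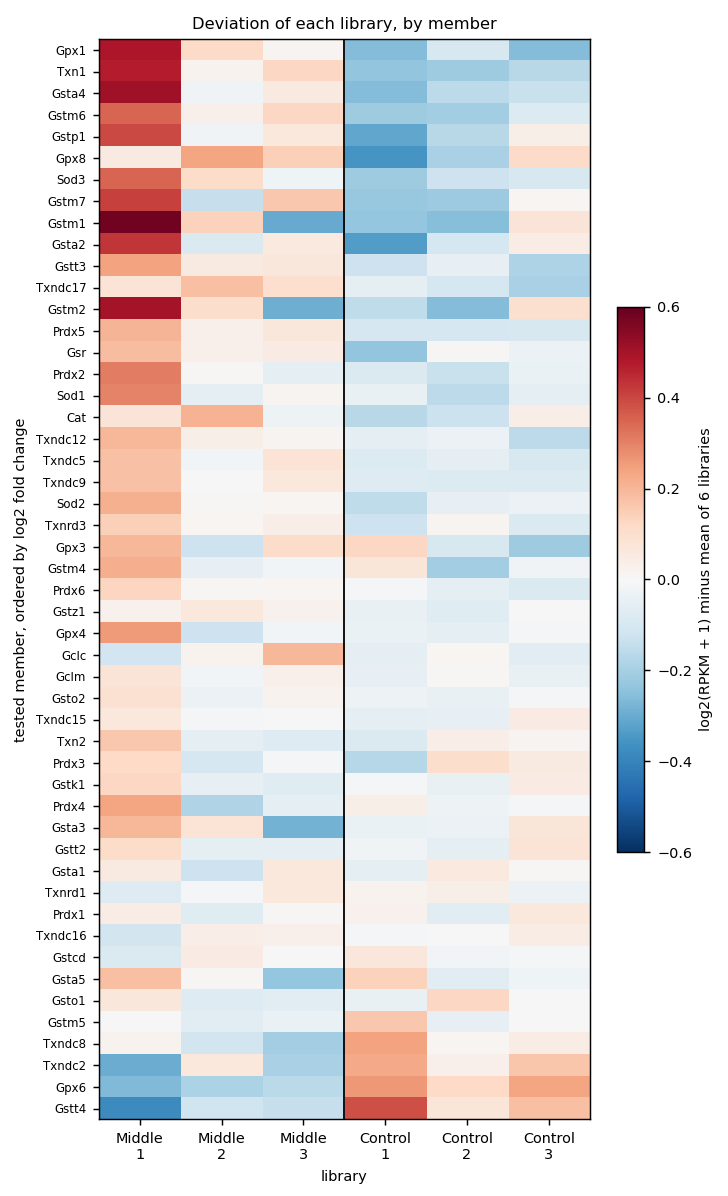
Deviation of each library from the mean of the 6 libraries on the log2(RPKM + 1) scale, with a row for each of the 50 tested members ordered by log2 fold change and Middle libraries left of Control. Middle replicate 1 is the reddest column for 34 members, and the rows of Txndc2, Gpx6 and Gstt4 at the bottom run blue in it.

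Marker genes of testis cells were read from the same comparison, none of them passed the adjusted threshold, and their part in the values above was not tested. The counts below stand beside 55.9% of all genes tested with a log2 fold change above 0. In whole tissue, fewer cells of a type and less RNA per cell cannot be told apart. Of 20 round spermatid markers 16 lay below 0 (median -0.17), and their summed level was 3696 to 3709 RPKM in Middle libraries, against 3869 to 4033 RPKM in Control libraries. Elongating spermatid markers had 14 of 19 below 0 (median -0.11) and summed to 30797 to 33243 RPKM in Middle, against 32676 to 36055 RPKM in Control. Sertoli cell markers had 16 of 18 above 0 (median 0.15) and summed to 406 to 473 RPKM in Middle, against 382 to 400.04 RPKM in Control, with 20 listed. Leydig cell markers had 12 of 16 above 0 (median 0.16) and summed to 359 to 435 RPKM and 328 to 391 RPKM in Middle and Control, with 18 listed. Peritubular and mesenchymal markers had 11 of 12 above 0 (median 0.21), with 16 listed and sums of 265 to 310.1 RPKM in Middle and 266 to 286 RPKM in Control. Cytosolic ribosomal protein genes lay above 0 for 44 of 44 (median 0.28, sums of 4402 to 5712 RPKM in Middle and 3894 to 4173 RPKM in Control). Of the 44, 31 reached an unadjusted p under 0.05 with Middle higher, against 11.7% of all genes (limma). Middle was higher without overlap for 33, against 17.9% of all genes. Their levels do not measure RNA quality, which was not tested. Of 9 tested mitochondrial genes 8 lay above 0 (median 0.45), while mt-Nd3 averaged 51.5 RPKM in Middle and 115 RPKM in Control. An unadjusted p under 0.05 was reached by 8 with Middle higher, against 11.7% of all genes, and by 1 with Middle lower, against 9.02%. Of these 9 genes, mt-Nd3 included, 1 passed the adjusted threshold. Spermatocyte markers had 11 of 18 above 0 (median 0.08), spermatogonium markers 7 of 8 (median 0.26) and macrophage and blood markers 8 of 11 (median 0.04), and 0 of 8 endothelial markers reached the level for testing. Of 17 epididymal markers 13 were in the table and 4 were tested, led by Cst8 at 278 RPKM in Middle and 307 RPKM in Control and by Defb19 at 28.7 and 30.4 RPKM. Without Middle replicate 1 the median was 0.03 for Leydig cell markers, 0.17 for ribosomal protein genes and 0.02 for macrophage and blood markers, and 0.11 for Sertoli cell markers. With the GC trend removed it was -0.19 for elongating spermatid markers, 0.08 for Sertoli cell markers and 0.10 for Leydig cell markers. No listed marker found in the table was at 0 in every library.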

How the data were processed

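RNA-seq of mouse testis was measured in 3 Middle and 3 Control libraries, grouped by their titles. The submitters' processing notes name fastp 0.23.0 and the build GRCm39. For the aligner, the counter and strandedness nothing is given in the sources used here. In the deposited table are RPKM values that the authors computed per gene and library, with exon lists and gene length per the file headers. Multiplied by length, 100% of the values were whole multiples of a step that each library has (tolerance 0.001), which gave the reads. Even numbers made up 70.9% to 72.6% of low read numbers, as when both mates are counted, so a limit of 6 reads was used for a count of 0. Intervals of this kind cover counting error only. The 1 pair of genes with equal coordinates on opposite strands held equal reads, as counting without strand gives.

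Values were transformed to log2(RPKM + 1), and the 15040 genes whose mean in Middle or Control came to 1 RPKM or more were compared with limma 3.58.1 (R 4.3.3), trend on, by two-sided tests adjusted after Benjamini-Hochberg (threshold 0.05). Fold changes on this scale understate those of low genes. Spreads are SD over 3 libraries. The fit was checked on simulated data with the same dispersion for all genes and both groups, no outlier library and no GC trend. It called 42% of the genes with a true ratio of 1.5, 90% at 2.0 and at 0.5, and 100% at 4.0, with 10 false calls. A true ratio of 1.5 or less can thus go uncalled, as can some of 2.0 or 0.5. Members, lists and role groups were chosen with earlier results of these data known. Members given per library were those with an unadjusted p under 0.05, the highest of each role group, and 12 with textbook roles (23 in all). Gstm1 and Gstm2 were added after their values were seen. Pathway genes named were up to 4 of each list with the smallest p, plus Nfe2l2 and Keap1 for their roles. Slc7a11 was added beside Slc3a2, and Cul3 beside Rbx1, after their values were seen. GC content and transcript copies (blastn 2.17.0, at least 95% identity over 200 bases, overlapping genes left out) came from GENCODE M21 by symbol, and promoters from RefSeq by symbol. Alternatives were 2 scalings, 2 pseudocounts, 2 filters, limma-voom, a replicate block, removal of a GC trend, and leaving out each library.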

Additional observations from a re-analysis of the deposited data

How the results depend on the processing

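No member passed the adjusted threshold under any of the 16 alternatives run, where the smallest adjusted p of a member was 0.0806 (Gstt4, limma-voom). The number of all genes called, 8 in the main comparison, was 0 with no filter, 26 with limma-voom, 0 with the replicate block, 0 with the GC trend removed and the replicate block, and 0 to 3 with a library left out. Members at an unadjusted p under 0.05 numbered 7 (14%, without Control replicate 1, when 9.6% of all genes did) to 17 (34%, without Middle replicate 2, when 26% of all genes did) with a library left out, against 13. Of 400 log2 fold changes of the 25 members given per library, 10 changed sign, all of Gpx4, Prdx4 or Gclc. Gpx4 was -0.0286 with the GC trend removed, -0.0286 with the replicate block as well, and -0.033 to 0.157 with a library left out. Prdx4 was -0.0144 with median-of-ratios scaling, -0.0196 with upper-quartile scaling, -0.0237 with limma-voom and -0.114 to 0.0942 with a library left out. Gclc was -0.0093 to 0.148 with a library left out. The cause was not tested.

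Replicate numbers showed no sign of pairing: deviations of Middle and Control libraries of the same number correlated at -0.153, -0.119 and 0.00544. No Middle library correlated best with its own number. Deviations were taken from the mean of each group, so these correlations are not independent and cannot settle whether the numbers pair libraries. With the block 12 members (24%) reached an unadjusted p under 0.05, against 15.1% of all genes. Gpx6 and Txn1 rest on 69 to 176 reads per library, so counting error limits them more than the genes at high level.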
